A study of Mus musculus with 11 samples.

Results

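Fos, Fosb, Fosl2, Jun, Junb, Jund, Atf3, Egr1, Ier2 and Nr4a1 are 10 genes of the AP-1 and immediate early response. They were found by symbol among the 31053 genes counted in every library, and each symbol matched 1 gene. The RNA of single cells of mouse lung was counted in droplets, from the 3′ end (10x Genomics), in 11 libraries, of which 1 was wild type (WT, +/+), 3 were p21 heterozygotes (p21Het, +/-), 5 carried an mTert allele of p21 beside a normal one (p21mTert, +/mTert) and 2 carried an mTertCD allele (p21mTertCD, +/mTertCD), a name the labels leave unexplained. p21 is the gene Cdkn1a, a cell cycle inhibitor that rises in senescent cells, and mTert is mouse telomerase reverse transcriptase. Every library came from the lung of a mouse with an age label of 18 months, apart from p21Het_1 (19 months) and p21mTert_1 (20 months), whose titles also say 18. Each library is called by its group with a replicate number. WT_1, p21Het_1 and p21mTert_1 came in a first deposit and the other 8 in a later one, and WT_1 shares its age label of 18 months with the later libraries. In the fits, which leave WT out, the first deposit is p21Het_1 and p21mTert_1 alone, so there the age label and the deposit cannot be told apart. Both p21mTertCD libraries are of the later deposit. No label says that the libraries of a group were from separate animals, and WT, with 1 library, entered no test between groups.

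AP-1 is a family of paired leucine zipper proteins, mostly a FOS protein (Fos, Fosb, Fosl2) with a JUN protein (Jun, Junb, Jund), that bind DNA as dimers. Immediate early genes are transcribed within minutes of a signal such as a growth factor, a cytokine or stress, without new protein synthesis, and their RNAs are short-lived. Atf3 encodes a stress-induced partner of the JUN proteins, Egr1 a zinc finger transcription factor, Ier2 a nuclear regulator and Nr4a1 an orphan nuclear receptor, also called Nur77, that Ly6C-low (non-classical) monocytes need for their survival. Enzymatic dissociation of a tissue is itself known to induce these genes. Here the lungs were filled with dispase, minced and digested with collagenase and dispase at 37 °C for 30 minutes before encapsulation, per the labels' protocols. The libraries give no measure of the genes before digestion.

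The files held 81983 barcodes, of which 69267 had 1000 to 30000 UMIs (unique molecular identifiers) and at most 14% mitochondrial UMIs, and were kept. Libraries held 42038434 to 85988955 UMIs in all and 4721 to 8525 kept cells, with a median of 4133 to 6454 UMIs per kept cell. Mitochondrial UMIs made up 6.30% to 6.58% of the median cell in libraries of the first deposit, and 2.82% to 4.28% in later libraries. Any 2 libraries shared at most 20 kept barcodes (at most 0.322% of the smaller). Tert, the gene added by the targeted alleles, gave 27 to 57 UMIs in WT and p21Het and 75 to 188 in p21mTert and p21mTertCD libraries, at 0.544 to 1.13 and 1.90 to 3.28 UMIs per 1000000 UMIs (CPM), so every library lay on the side of its label. Cdkn1a itself ran from 118 to 187 CPM with overlapping groups. Cells were assigned to 14 lineages by marker genes: a cell needed at least 3 of the 8 markers of a list and at least 2 more than of any other list, and 61681 cells (82.4% to 91.8% per library) met this.

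The DNA just upstream of 5 members is shown. Fos, Fosb, Jun and Junb rose and fell together between libraries, as described further on. They are not alone in this, since Ier2 had a Pearson r of 0.76 with Junb, against 0.62 for Jun with Junb. Nr4a1, which followed them less closely, has a lineage pattern of its own. Atf3 has a window that is not shown. Each run is the 250 bases before the RefSeq start (GRCm38.p6), and 8 of the 10 members had an entry. Fos lies at chr12:85473640-85473889 on the plus strand, Fosb at chr7:19310046-19310295 on the minus strand, Jun at chr4:95052223-95052472 on the minus strand, Junb at chr8:84978749-84978998 on the minus strand and Nr4a1 at chr15:101266596-101266845 on the plus strand. The window of Nr4a1 is upstream of the RefSeq start and lies inside the longer GENCODE M21 gene. Among the windows searched but not shown, those of Fosl2 and Atf3 also lie inside their GENCODE genes. The Jund window ends at chr8:70697738, whereas the GENCODE gene starts at 70698949, so it does not adjoin that start. Capitals mark TGACG or its complement CGTCA, the core of the cAMP response element, and in Jun the AP-1-like letters TGACATCA and TTACCTCA.
Fos: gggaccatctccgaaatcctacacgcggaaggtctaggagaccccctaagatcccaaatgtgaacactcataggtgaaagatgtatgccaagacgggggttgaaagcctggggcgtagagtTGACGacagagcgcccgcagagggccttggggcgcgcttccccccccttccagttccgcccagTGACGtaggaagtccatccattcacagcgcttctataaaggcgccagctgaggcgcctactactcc
Fosb: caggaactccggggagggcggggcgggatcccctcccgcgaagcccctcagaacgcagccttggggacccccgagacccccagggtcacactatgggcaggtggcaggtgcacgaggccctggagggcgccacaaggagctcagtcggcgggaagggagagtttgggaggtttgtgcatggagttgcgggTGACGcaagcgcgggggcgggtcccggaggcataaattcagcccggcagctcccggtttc
Jun: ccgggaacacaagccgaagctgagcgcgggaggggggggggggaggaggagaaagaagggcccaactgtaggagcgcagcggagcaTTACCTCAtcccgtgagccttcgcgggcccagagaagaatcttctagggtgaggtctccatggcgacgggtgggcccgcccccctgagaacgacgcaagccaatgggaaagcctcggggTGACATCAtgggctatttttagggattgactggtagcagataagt
Junb: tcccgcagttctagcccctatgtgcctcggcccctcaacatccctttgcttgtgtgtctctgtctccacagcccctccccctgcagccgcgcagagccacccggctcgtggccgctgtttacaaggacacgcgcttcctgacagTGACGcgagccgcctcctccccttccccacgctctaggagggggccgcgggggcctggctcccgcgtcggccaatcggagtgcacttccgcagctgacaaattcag
Nr4a1: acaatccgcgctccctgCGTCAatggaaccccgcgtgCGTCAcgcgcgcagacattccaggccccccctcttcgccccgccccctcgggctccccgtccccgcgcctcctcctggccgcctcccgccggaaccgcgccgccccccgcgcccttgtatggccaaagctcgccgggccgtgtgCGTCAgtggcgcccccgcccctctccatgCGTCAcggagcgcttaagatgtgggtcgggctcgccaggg

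TGACG on either strand was found in Fos at 2 places (129 and 66 bases before the start), in Fosb at 60, in Junb at 106, in Nr4a1 at 4 places (233, 213, 69 and 40) and in Atf3 at 7. These are 5 of the 8 windows, and 17.8% of the 32851 RefSeq windows of the same length hold it. The AP-1-like letters of Jun, searched as TGACATCA or TTACCTCA on both strands, lie 45 and 164 bases before its start and occur in 3.64% of the windows. The search held only these strings, and both stand in the Jun window. The match therefore describes that window, and the share is no test of it. The full element TGACGTCA (1.55% of windows), the AP-1 site TGAGTCA (4.46%) and the CArG box (1.47%) had no match in the 8 windows. Egr1 and Ier2 had no window, and nothing beyond the 250 bases was searched, so sites elsewhere are not covered. TGACG is contained in TGACGTCA, so these motifs overlap in definition. A match of letters is a description of the window, not a binding site.

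FOS family members were highest in stromal cells, except Fosl2. Fos, the founding member of the family, had its highest level in fibroblasts, where it ran from 2502 to 4812 CPM over the 11 libraries with a median of 3559 (mean 3479 ± 637, SD, n = 11). Mural cells, the contractile cells around vessels, followed with a mean of 3162 CPM (n = 8 libraries with at least 20 such cells). Ciliated cells had 2645, interstitial macrophages 1922, endothelial cells 1755, AT2 cells (alveolar type 2, the surfactant cells) 1655 and neutrophils 1523 CPM. Fos was lowest in T cells at 281, NK cells at 242 and erythroid cells at 56.6 CPM. Fibroblasts held the highest level in 8 of 11 libraries, mural cells in 2 and ciliated cells in 1.

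Neighbours in such an order were compared within libraries by a 2-sided exact sign-flip permutation test of log2(CPM + 1), adjusted over 130 neighbour pairs of the 10 genes (Benjamini-Hochberg). The order itself was taken from the same libraries. Of these pairs, 44 differed at an adjusted p under 0.05. For Fos, fibroblasts and mural cells did not differ beyond their spread (mean log2 difference 0.25, higher in 6 of 8 libraries, exact adjusted p = 0.257). Ciliated cells exceeded interstitial macrophages by 0.49 on the log2 scale in 8 of 11 libraries (exact adjusted p = 0.0472). Neutrophils exceeded classical monocytes by 0.57, alveolar macrophages non-classical monocytes by 0.84 and B cells T cells by 1.13, each in 11 of 11 libraries. Erythroid cells held the least Fos, below NK and T cells, while B cells, at a mean of 577 CPM, lay beside non-classical monocytes at 567.

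Fosb, a close relative of Fos, was also highest in fibroblasts, at 975 to 2156 CPM with a median of 1888 (highest in 9 of 11 libraries). Mural cells had a mean of 1403, endothelial cells 1283, AT2 cells 1244 and interstitial macrophages 1081 CPM. Fibroblasts and mural cells did not differ beyond their spread for Fosb (0.40, higher in 6 of 8 libraries, exact adjusted p = 0.236). Ciliated cells, near the top for Fos, had 592 CPM of Fosb, below interstitial macrophages by 0.83 on the log2 scale in 11 of 11 libraries. Fosl2, a longer-lived FOS protein also called Fra-2, had another order. Its highest level was in neutrophils in all 11 libraries, at 276 to 738 CPM with a median of 514 (mean 525 ± 118, SD). Classical monocytes followed with 376 CPM, lower by 0.47 on the log2 scale in 11 of 11 libraries (exact adjusted p = 0.00577), and then alveolar macrophages with 215 CPM. Fibroblasts had 95.4, endothelial cells 67.2, AT2 cells 48.5 and B cells 20.4 CPM of Fosl2. The lineages that led for Fos and Fosb thus lay in the lower part of the order for Fosl2.

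JUN family members split between stromal cells and neutrophils. Jun, the classical partner of Fos, ran from 1953 to 4362 CPM in fibroblasts with a median of 3316. Endothelial cells had 2020 to 3346 CPM with a median of 2665, lower than fibroblasts by 0.27 on the log2 scale in 8 of 11 libraries (exact adjusted p = 0.0491). Mural cells had a mean of 2042, ciliated cells 2023 and AT2 cells 1905 CPM. Below these came interstitial macrophages with 914 and alveolar macrophages with 370 CPM, lower than AT2 cells by 1.13 and than interstitial macrophages by 1.18 on the log2 scale in 11 of 11 libraries. Neutrophils had 190, classical monocytes 156, T cells 149 and NK cells 127 CPM of Jun, so that the blood-borne lineages lay at the bottom.

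Junb, a JUN protein with weaker growth-promoting activity, showed the other order. It was highest in neutrophils in all 11 libraries, at 2253 to 4045 CPM with a median of 3299. Fibroblasts, the next lineage, had a mean of 2049 CPM, lower by 0.68 on the log2 scale in 11 of 11 libraries (exact adjusted p = 0.00577). All other nucleated lineages lay between 784 CPM in alveolar macrophages and 1714 in interstitial macrophages. Jund, the JUN gene with the steadiest expression in most cells, spread least of the 3: its means ran from 705 CPM in alveolar macrophages to 2074 in neutrophils among nucleated lineages. Neutrophils and B cells, which had 1836 CPM, did not differ beyond their spread for Jund (0.16, exact adjusted p = 0.175).

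Atf3 and Ier2 had their highest means in ciliated cells and Egr1 in fibroblasts. Atf3 ran from 687 to 1782 CPM in ciliated cells with a median of 1369.7, and this lineage was highest in 9 of 11 libraries. Ciliated cells exceeded mural cells by 0.72 on the log2 scale in 8 of 8 libraries (exact adjusted p = 0.0254). Lymphocytes held little Atf3, with 49.4 CPM in B cells, 24.8 in NK cells and 22.7 in T cells. Egr1 ran from 1511 to 2073 CPM in fibroblasts with a median of 1615, followed by mural cells at a mean of 1285, endothelial cells at 1091 and ciliated cells at 1057 CPM. Fibroblasts led for Egr1 in 7 of 11 libraries and did not differ from mural cells beyond their spread (0.44, higher in 6 of 8 libraries, exact adjusted p = 0.117). Classical and non-classical monocytes had 54.8 and 37.8 CPM of Egr1, against 15.5 in erythroid cells. Ier2 ran from 575 to 1042 CPM in ciliated cells with a median of 964, above endothelial cells by 0.41 in 8 of 11 libraries (exact adjusted p = 0.0702), which misses the threshold.

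Nr4a1 had its highest level in non-classical monocytes. Its level there was 2002 CPM in WT, 1933, 1476 and 1869 across p21Het, 2052, 1945, 2143, 2402 and 2841 across p21mTert, and 1675 and 2699.6 across p21mTertCD. In classical monocytes it was 1051 in WT, 1111, 585 and 744 across p21Het, 1043, 802, 939.8, 1038 and 1158 across p21mTert, and 833 and 1292 across p21mTertCD. Non-classical monocytes were the highest lineage in all 11 libraries and exceeded classical monocytes by 1.13 on the log2 scale in each (exact p = 0.000977, the smallest that 11 libraries can give; adjusted p = 0.00577). Classical monocytes and neutrophils, which had a mean of 857 CPM, did not differ beyond their spread (0.18, exact adjusted p = 0.204). Neutrophils exceeded B cells, at 512 CPM, by 0.78 on the log2 scale in 11 of 11 libraries. Endothelial cells, near the top for Jun and Egr1, had 109 CPM of Nr4a1.

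**Figure D1:**
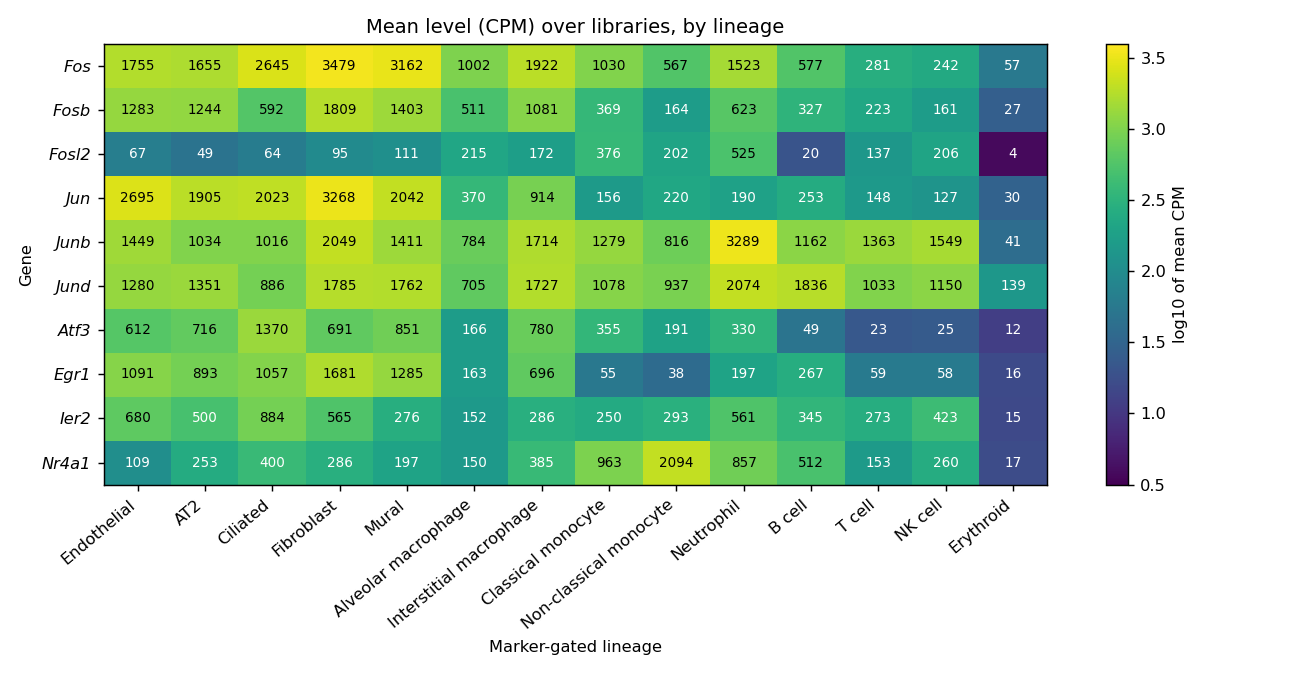
Mean level of each of the 10 genes in each lineage over libraries, printed in CPM and coloured by its log10, to be read along a gene and not between genes. Fos, Fosb, Jun and Egr1 peak in fibroblasts (3479, 1809, 3268 and 1681 CPM), Junb and Fosl2 in neutrophils (3289 and 525 CPM), Atf3 in ciliated cells (1370.2 CPM) and Nr4a1 in non-classical monocytes (2094 CPM).

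The share of cells with a UMI, after each cell was thinned to 1000 UMIs, had the same leading lineage as the CPM for Fosl2, Junb, Jund, Egr1 and Nr4a1, and another for Fos, Fosb, Jun, Atf3 and Ier2. Nr4a1 was found in 81.3% ± 6.26 of non-classical monocytes, 58.5% of classical monocytes and 48.0% of neutrophils, against 1.66% of erythroid cells. The erythroid shares are given for comparison and rest on 9 libraries, without WT_1 and p21Het_1. How far they come from free RNA was not tested. Unthinned, it was found in 99.6% of non-classical monocytes (median 6726 UMIs), 98.0% of classical monocytes (median 12273 UMIs) and 79.4% of neutrophils (median 3830 UMIs). The unthinned share in erythroid cells was 4.79% (median 3805 UMIs). Junb was found in 91.9% ± 3.29 of thinned neutrophils and 99.4% of unthinned ones (median 3830 UMIs), against 4.24% and 9.51% of erythroid cells. Jun was found in 73.2% of thinned endothelial cells, 56.8% of fibroblasts and 13.4% of neutrophils, against 2.71% of erythroid cells. Fos was found in 71.8% of thinned neutrophils and 51.6% of fibroblasts, against 4.57% of erythroid cells. Fosb was found in 54.5% of interstitial macrophages and 43.8% of fibroblasts, and Atf3 in 40.9% of interstitial macrophages and 40.3% of ciliated cells. Since these shares go against the CPM, no order of lineages is read from them for these genes. Egr1 was found in 3.44% of classical and 3.06% of non-classical monocytes, against 1.68% of erythroid cells. Unthinned, its shares were 20.4%, 14.4% and 4.72%, in cells that differ in depth.

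Many single cells held several of the 10 RNAs. After thinning, neutrophils held a mean of 4.70 of the 10 genes per cell, and 55.0% ± 14.2 of them held at least 5. At least 5 were found in 46.6% of interstitial macrophages, 44.0% of ciliated cells, 41.7% of fibroblasts, 39.9% of AT2 cells and 28.7% of endothelial cells. In B cells the share was 14.0%, in T cells 7.60% and in erythroid cells 0.0987%. None of the 10 was seen in 0.183% of neutrophils, 11.2% of endothelial cells and 74.7% of erythroid cells. Libraries spread widely around these means: in neutrophils the share with at least 5 ran from 29.3% to 77.7%.

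Pairs of the RNAs were also counted in the same thinned cells, as the share with both against the product of the separate shares. In endothelial cells, Fos and Egr1 were found together in 20.5% of cells, against 9.11% from the product, a ratio of 2.25. Fos and Fosb met in 21.9% against 9.62%, and Fos and Junb in 24.6% against 12.5%. Each of these endothelial ratios was above 1 in 11 of 11 libraries, so cells with Fos RNA were the ones that more often held the others. Fibroblasts gave a ratio of 1.70 for Fos and Fosb. In neutrophils Fos and Junb met in 66.6% of cells against 66.2% (above the product in 9 of 11 libraries), Fos and Fosb in 30.7% against 29.7% (10 of 11) and Fos and Jun in 9.02% against 9.52% (4 of 11). Classical monocytes gave a ratio of 1.00 for Fos and Jund (above in 5 of 11). B and T cells gave ratios of 1.09 to 1.76 over the 6 pairs with Fos. A ratio cannot exceed the inverse of the share of cells with either gene, and Fos was in 71.8% of thinned neutrophils against 32.5% of endothelial, 28.6% of B and 20.0% of T cells. The ratios are therefore descriptions within a lineage and are not compared between lineages.

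Because lineages differ in number and RNA content, the lineage with the highest level was not the one that gave most of the RNA. Mean shares of the kept UMIs were highest in AT2 cells for Fos (18.5%), Fosb (24.6%), Jun (28.5%), Atf3 (25.6%), Egr1 (26.7%) and Ier2 (16.4%). T cells had the highest mean share of Junb (18.0%). For Fosl2 T cells (16.8%), classical monocytes (16.0%) and neutrophils (15.0%) lay close together, and summed over libraries classical monocytes gave the most Fosl2 UMIs (12873, against 12317 in neutrophils and 12316 in T cells). B cells gave most of Jund (21.2%) and Nr4a1 (17.9%). For Nr4a1 the share of B cells ran from 1.21% to 25.0% between libraries. A level summed over all kept cells therefore moves with the makeup of the library.

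Across libraries the members moved together to different degrees. Each gene's log2(CPM + 1) was centred within its lineage, and pairs were correlated over 149 lineage-by-library sums, which share libraries and depth, so that the values are descriptions. Fos and Fosb had the highest Pearson r (0.83), followed by Junb and Ier2 (0.76) and Fos and Jun (0.75). The r of Fosl2 with the other members ran from 0.08 (Atf3) and 0.12 (Egr1) to 0.42 (Junb) and 0.45 (Jund), and that of Nr4a1 from 0.28 (Fosl2) and 0.32 (Jun) to 0.55 (Junb). Of 6437 other genes with at least 20 CPM on average, those most like the summed members were Btg2 (0.81), an antiproliferative gene, Dusp1 (0.78), a phosphatase that switches off MAP kinases, Klf6 (0.76), a zinc finger factor, Mcl1 (0.74), a survival protein of the BCL2 family, and Gm26532 (0.73). Gm26532 is an annotated lincRNA at chr8:84208920-84209609 (plus strand, GENCODE M21) that overlaps the end of Mir24-2 on the same strand and lies next to Mir27a and Mir23a. The median over 30 other immediate early genes was 0.40, over 20 AP-1 and bZIP partners 0.24, over 22 kinases and SRF factors 0.20, over 15 heat shock genes 0.19 and over all 6437 genes 0.19.

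In UMIs summed over all kept cells, no member passed the test between genotypes. The ranges of p21mTert and p21Het overlapped for all 10, as did those of p21mTertCD and p21Het. Most other genes overlapped too. In either direction, at most 1.31% of the 6238 genes with at least 20 CPM separated p21mTert from p21Het. For p21mTertCD and p21Het the share was at most 7.58%. The overlap of the 10 members is read against these low shares. All 5 p21mTert libraries lay above both p21mTertCD libraries for Atf3, Egr1 and Ier2, against 9.78% of the 6238 genes with at least 20 CPM. In such sums fewer cells of a type and less RNA per cell cannot be told apart. Atf3 was at 464 CPM in WT, 353, 288 and 209.8 across p21Het, 366, 337, 438, 472 and 326 across p21mTert, and 215 and 307 across p21mTertCD. Its means were 284 ± 71.8 (SD, n = 3), 388 ± 64.4 (n = 5) and 261 ± 65.0 (n = 2). The p21mTert libraries lay in the upper part of the range, with p21Het_1 among them, and above both p21mTertCD libraries. For p21mTert minus p21Het, the quasi-likelihood test of edgeR gave 0.42 on the log2 scale (SE 0.18, adjusted p = 0.672), and Atf3 was the only member with an unadjusted p under 0.05.

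Egr1 was at 464.5 CPM in WT, 529.7, 359 and 220.2 across p21Het, 506, 426, 525.6, 560.4 and 411 across p21mTert, and 203 and 378 across p21mTertCD. Jun was at 997 in WT, 869, 774 and 413 across p21Het, 751.5, 908, 1053, 1211 and 823 across p21mTert, and 424 and 828 across p21mTertCD. For both genes p21Het_3 and p21mTertCD_1 were the lowest libraries, and p21Het_1 lay inside the p21mTert range. p21mTertCD_2 lay inside that range for Jun and below it for Egr1. On the log2 scale p21mTert minus p21Het was 0.38 (SE 0.24) for Egr1 and 0.44 (SE 0.27) for Jun, with adjusted p of 0.703 and 0.693 (edgeR). Fos gave 0.09 (SE 0.14) and Nr4a1 0.07 (SE 0.20). Fosl2 and Junb gave values below 0, at -0.30 (SE 0.29) and -0.02 (SE 0.14), and without p21Het_3 both were above 0 (0.17 and 0.12) and Fos was at -0.02. Within the later deposit alone, Atf3 gave 0.53, Egr1 0.60 and Jun 0.62 (adjusted p = 0.319, 0.360 and 0.398; edgeR), and the first deposit holds 1 library each of p21Het and p21mTert. Over both deposits without p21Het_3 the same genes gave 0.27, 0.14 and 0.20, and without p21Het_1 they gave 0.51, 0.62 and 0.55.

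**Figure D2:**
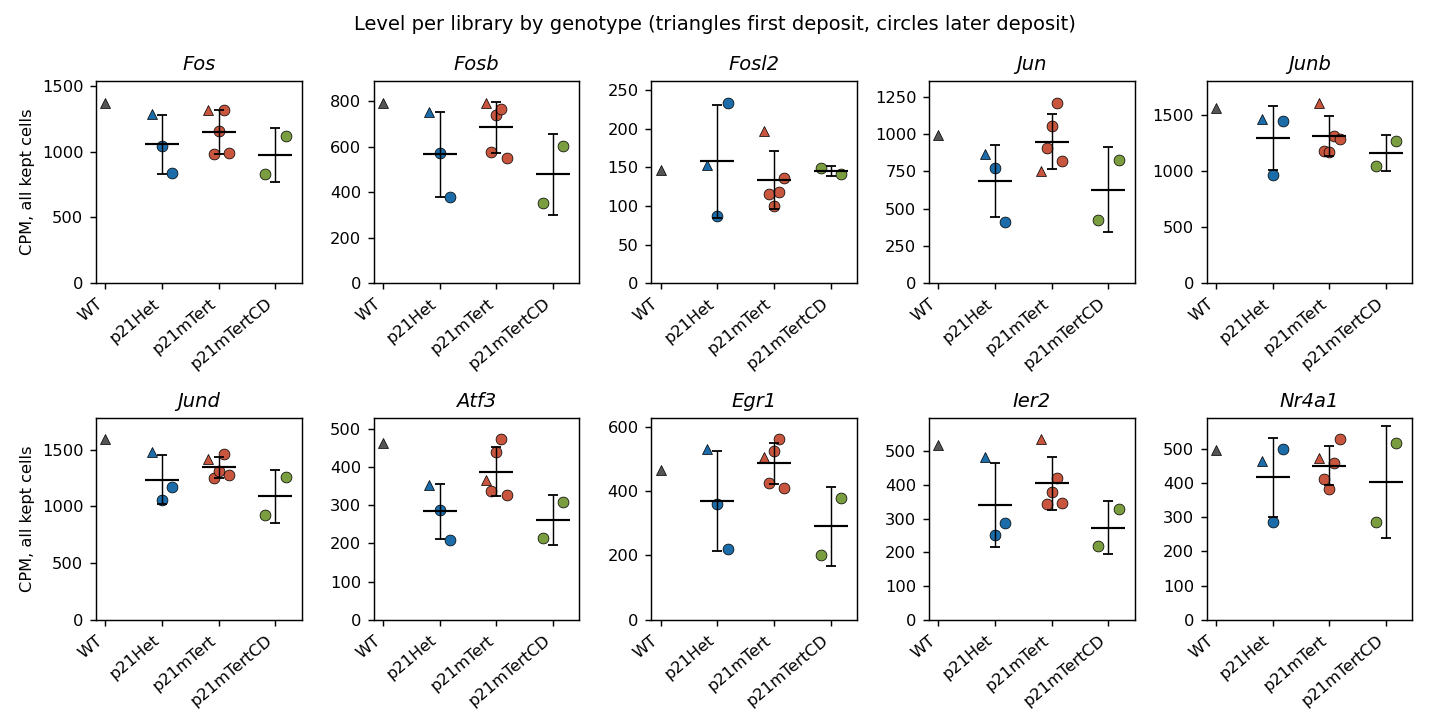
Level of each of the 10 genes in every library, in CPM over all kept cells, by genotype, with bars at the group mean and SD where a group has more than 1 library. For Atf3 the p21mTert libraries run from 326 to 472 CPM and the p21Het libraries from 209.8 to 353 CPM, so the groups overlap.

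Counted over the 10 members, p21mTert minus p21Het was above 0 for 8, with a median log2 fold change of 0.16 against 0.01 over all 17503 genes tested. Of those genes 0.0114% were called at an adjusted p under 0.05, and none was a member. For p21mTert minus p21mTertCD 9 of 10 were above 0 with a median of 0.34 against 0.02, and 0.00571% of all genes were called. Atf3 (0.50, SE 0.20, adjusted p = 0.275) and Egr1 (0.68, SE 0.29, adjusted p = 0.290; edgeR) had an unadjusted p under 0.05 there, beside 16.1% of all genes. For p21mTertCD minus p21Het all 10 were below 0 with a median of -0.11 against -0.03, 0.12% of all genes were called, and no member had an unadjusted p under 0.05. DESeq2 called 0 members in each of the 3. The 3 contrasts share libraries, so that p21mTertCD_1, the library with the lowest summed level of the 10 genes (4650.3 CPM, against 8398 in WT, the highest), enters both contrasts with p21mTertCD. With deposit as a term, or in the later deposit alone, these contrasts also called 0 members (edgeR).

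Within lineages, p21mTert minus p21Het called 0 of 90 member tests (edgeR), with 66 above and 24 below 0, 6 at an unadjusted p under 0.05, and 0 called by DESeq2. Of all genes, 2.95% (B cells) to 8.28% (AT2 cells) had an unadjusted p under 0.05, so the members' 6 of 90 is near the background. All 10 members were above 0 in endothelial cells (median 0.31), AT2 cells (0.33), classical monocytes (0.31) and non-classical monocytes (0.23), while the medians over all genes ran from -0.00426 to -0.00147 in these lineages. Neutrophils and alveolar macrophages had 8 of 10 above 0 (medians 0.18 and 0.11). B cells had 5 of 10 above 0 (-0.01), fibroblasts 4 of 10 (-0.03) and T cells 1 of 10 (-0.07). Of all genes tested, the test called 0.0287% in alveolar macrophages, 0.025% in AT2 cells, 0.034% in B cells, 0.0742% in classical monocytes, 0.0176% in endothelial cells, 0.0238% in non-classical monocytes, 0.0162% in T cells and 0% in fibroblasts and neutrophils. The members' 0 is read against these low shares. Since the members move together between libraries, a count of signs over them is not a count of independent results.

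Endothelial cells are the lineage that the series title bears on, through capillaries. Endothelial Fos was at 1838 CPM in WT, 1656, 1533 and 1028 across p21Het, 2406, 1255, 2352, 1766 and 1724 across p21mTert, and 1282 and 2465 across p21mTertCD. The p21mTert_1 and p21mTert_3 libraries and p21mTertCD_2 were high and p21Het_3, p21mTert_2 and p21mTertCD_1 low, so the groups overlapped. For p21mTert minus p21Het endothelial Fos gave 0.45 on the log2 scale (SE 0.23, adjusted p = 1.00; edgeR). For p21mTert minus p21mTertCD 9 of 10 members were above 0 (median 0.18, 0.176% of all genes called) and for p21mTertCD minus p21Het 9 of 10 (median 0.14, 0.0353% called). No member was called or had an unadjusted p under 0.05 in either, and DESeq2 called 0.

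The lowest unadjusted p-values within lineages came from monocytes and neutrophils. Egr1 in non-classical monocytes was at 35.6 CPM in WT, 32.8, 25.1 and 9.15 across p21Het, 65.5, 30.0, 37.1, 87.6 and 47.2 across p21mTert, and 18.0 and 28.0 across p21mTertCD. p21mTert exceeded p21Het by 1.28 on the log2 scale (SE 0.35, adjusted p = 0.390; edgeR), with p21mTert_2 inside the p21Het range. Jun in neutrophils went the other way, at 258 CPM in WT, 324, 316 and 145 across p21Het, 174, 186, 131, 118 and 149 across p21mTert, and 142 and 151 across p21mTertCD (-0.87, SE 0.25, adjusted p = 0.508; edgeR). There p21Het_1 and p21Het_2 stood above the rest and p21Het_3 did not. Nr4a1 in non-classical monocytes gave 0.39 (SE 0.13, adjusted p = 0.540; edgeR), Atf3 in AT2 cells 0.66 (SE 0.21, adjusted p = 0.457; edgeR), Egr1 in alveolar macrophages 0.76 (SE 0.24, adjusted p = 0.747; edgeR) and Atf3 in neutrophils 0.45 (SE 0.19, adjusted p = 0.741; edgeR).

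**Figure D3:**
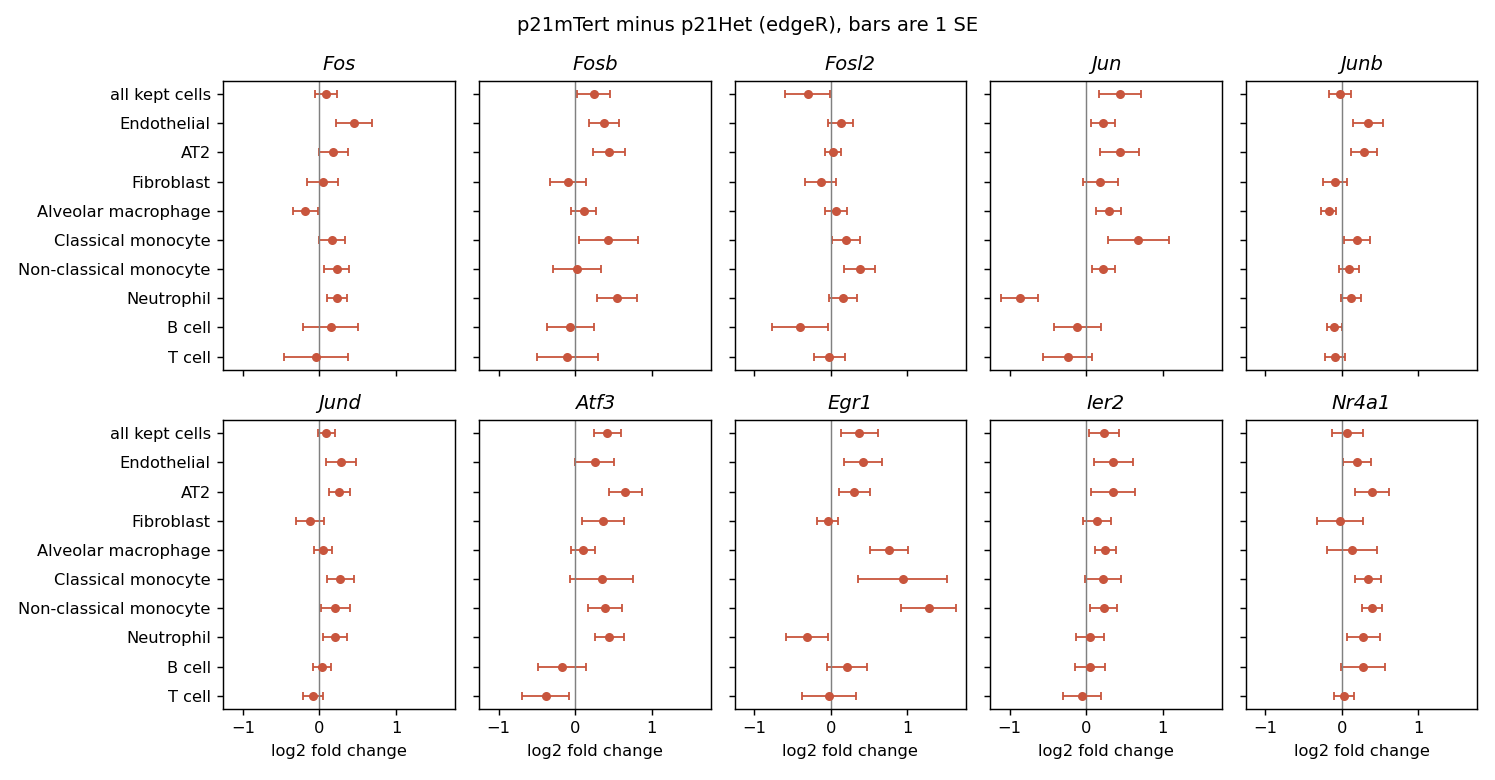
Difference of p21mTert from p21Het, as log2 fold change, for each of the 10 genes in all kept cells and in 9 lineages, with bars of 1 standard error each way. No value passed an adjusted p of 0.05, and the values of endothelial cells, AT2 cells and both monocyte lineages all lie above 0.

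The other genes of the pathway gave no call either, where at most 0.0742% of all genes were called in a lineage (classical monocytes). In the 9 lineages p21mTert minus p21Het called 0 of 197 tests of AP-1 and bZIP partners (114 above and 83 below 0), 0 of 265 tests of other immediate early genes (171 and 94), 0 of 216 tests of kinases and SRF factors (112 and 104) and 0 of 133 tests of heat shock genes (63 and 70). At an unadjusted p under 0.05 stood 12, 25, 7 and 11 of them, beside 2.95% (B cells) to 8.28% (AT2 cells) of all genes.

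Between the deposits, members were called within 3 lineages by edgeR and within 6 by DESeq2, each time lower in the later deposit. In all kept cells, later minus first deposit, with genotype as a term, called 0 of 10 members by edgeR (0.0171% of all genes). Ier2 alone had an unadjusted p under 0.05, at -0.52 on the log2 scale (SE 0.14, adjusted p = 0.155; edgeR), and DESeq2 called it alone (4.47% of all genes). Within lineages edgeR called 8 of 90 member tests: 5 in classical monocytes, 1 in neutrophils and 2 in T cells. Of all genes tested, edgeR called 1.2% in classical monocytes, 3.44% in neutrophils and 0.816% in T cells, in both directions. By edgeR no member was called in endothelial cells (3.09% of all genes), B cells (0.824%), non-classical monocytes (0.453%), AT2 cells (0.25%), alveolar macrophages (0.0479%) or fibroblasts (0.0103%).

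DESeq2 called 16 of the 90, among them the 8 of edgeR. It added Jund in classical monocytes (-0.53 on the log2 scale), Ier2 in neutrophils (-0.49), and Jun (-0.89) and Fosb (-1.001) in T cells. In lineages with no edgeR call it added Ier2 in AT2 cells (-0.84) and B cells (-0.57), and Jund (-0.53) and Junb (-0.36) in non-classical monocytes. Of all genes tested, DESeq2 called 2.16% in classical monocytes, 5.33% in neutrophils, 2.91% in T cells, 1.25% in AT2 cells, 4.53% in B cells and 0.978% in non-classical monocytes. It called no member in endothelial cells (2.88% of all genes), alveolar macrophages (1.92%) or fibroblasts (0.195%).

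Classical monocytes held 5 of the 8 calls. Atf3 was at 664 CPM in WT_1, 572.5 in p21Het_1 and 675 in p21mTert_1, and ran from 150.1 to 342 with a median of 243 in the 8 later libraries. Its fold change in the fit, which leaves out WT, was -1.44 on the log2 scale (SE 0.18, adjusted p = 0.00436; edgeR). Fosb was at 588, 500.03 and 764 CPM in the first deposit, against 172 to 416 with a median of 279 in later libraries (-1.19, SE 0.24, adjusted p = 0.0298; edgeR). Every first-deposit library lay above every later one for both genes, WT included, although it was not in the fit. Fos stood at 1447, 1246 and 1337 CPM against 648 to 1043 with a median of 929 (-0.53, SE 0.11, adjusted p = 0.0415; edgeR). This call for Fos was lost in 10 of 18 alternatives, among them each p21mTert or p21mTertCD library left out (adjusted p of 0.0568 to 0.332; edgeR). Junb stood at 1859.7, 1562 and 1686 against 829.6 to 1313 with a median of 1116 (-0.57, SE 0.10, adjusted p = 0.0207; edgeR), and Ier2 at 389, 320.1 and 400.5 against 176 to 252 with a median of 203 (-0.81, SE 0.11, adjusted p = 0.00613; edgeR). All 10 members were below 0 in this lineage, each with an unadjusted p under 0.05 (15.4% of all genes), with a median of -0.69 against 0.00383 over all genes.

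In T cells Egr1 was at 64.0, 104 and 117 CPM in the first deposit, against 33.2 to 62.2 with a median of 45.1 in later libraries (-1.16, SE 0.15, adjusted p = 0.0211; edgeR). Ier2 in T cells was at 372, 407 and 428 against 184 to 267 with a median of 218 (-0.80, SE 0.13, adjusted p = 0.0281; edgeR). In neutrophils Fosb was at 893, 824 and 1032 against 270.7 to 728 with a median of 556 (-0.79, SE 0.17, adjusted p = 0.0337; edgeR). Again the deposits did not overlap. Members' medians were -0.66 in T cells, -0.43 in non-classical monocytes, -0.27 in AT2 cells, -0.24 in neutrophils, -0.12 in endothelial cells, -0.10 in B cells, -0.05 in alveolar macrophages and 0.06 in fibroblasts.

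Over all 11 libraries, with no test, the 3 first-deposit libraries lay above all 8 later ones for 7 members in classical monocytes (Fos, Fosb, Fosl2, Junb, Jund, Atf3 and Ier2), against 7.58% of the 5209 genes with at least 20 CPM. In neutrophils they did so for 5 members (Fos, Fosb, Fosl2, Jund and Ier2) against 13.2% of genes, and in T cells for 5 (Fos, Fosb, Jun, Egr1 and Ier2) against 8.15%. The median mitochondrial share per cell also separated the deposits without overlap. So did the median UMIs per kept cell, at 4133 to 4420 in first-deposit and 5122.5 to 6454 in later libraries. The part of UMIs per cell was not tested. With cells of at most 5% mitochondrial UMIs, edgeR called 8 of the 90 member tests, 7 of them among the original 8, and Ier2 in T cells then gave -0.59 (adjusted p = 0.131). That cut lies below the median of each first-deposit library (6.30% to 6.58%) and above that of each later one (2.82% to 4.28%). It therefore does not match the deposits, and the part of the mitochondrial share was not tested. WT_1, which has the age label of the later libraries and was not in the fit, lay with the first deposit in the values named above. Its Egr1 in T cells, though, lay closer to the highest later library than to p21Het_1 or p21mTert_1. The part of age was not tested.

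**Figure D4:**
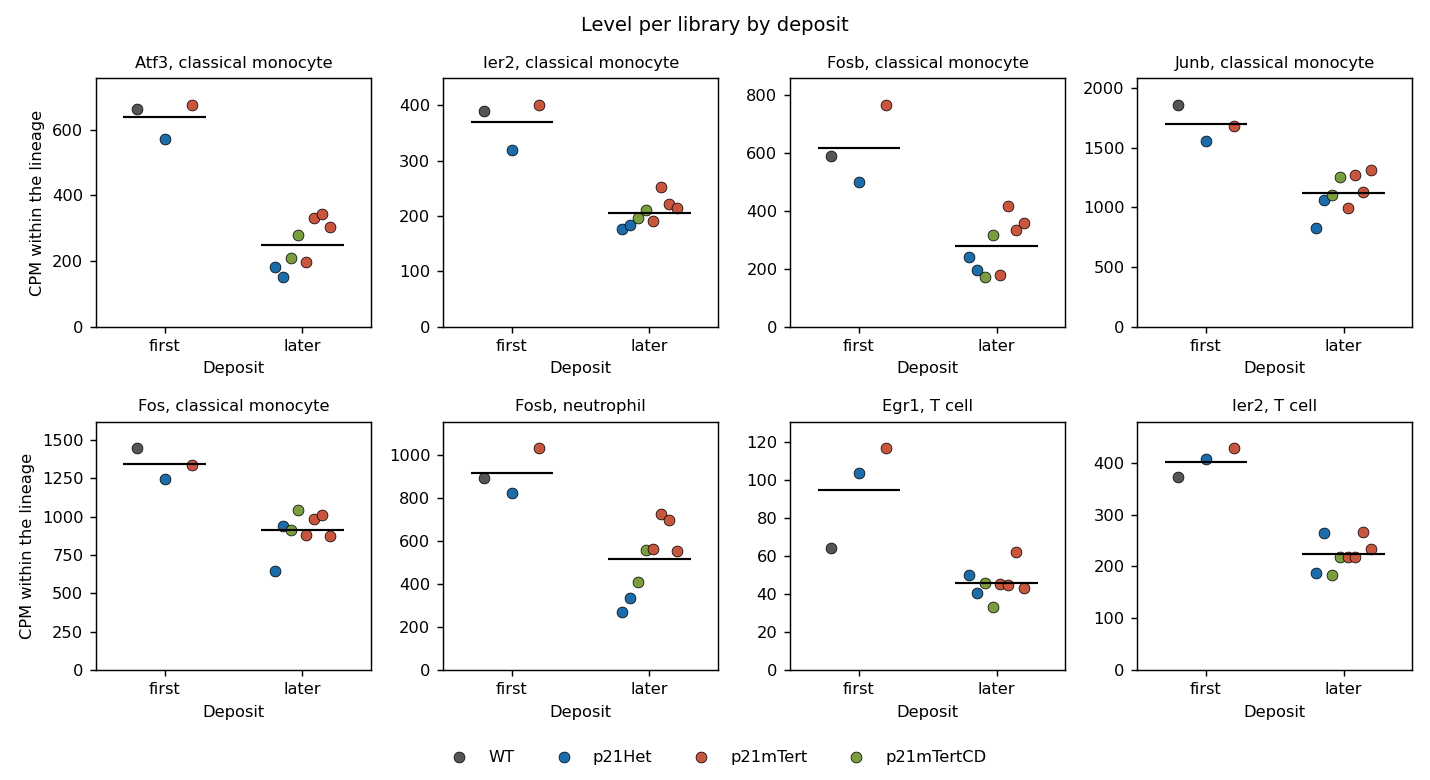
Level of the 8 gene and lineage pairs that passed the test between deposits, in each of the 11 libraries, with the first deposit (WT_1, p21Het_1, p21mTert_1) beside the later 8 libraries, points coloured by genotype and lines at the deposit means. In each panel the first-deposit libraries lie above all later ones, as for Atf3 in classical monocytes with 572.5 to 675 against 150.1 to 342 CPM.

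The differences rest on few libraries of the first deposit. With p21Het_1 or p21mTert_1 left out, 1 first-deposit library remains in the fit and none of the 90 tests is called, and Atf3 in classical monocytes then gave -1.16 (adjusted p = 0.171; edgeR) and -1.75 (adjusted p = 0.0682; edgeR). Leaving out p21mTert_2 gave 4 calls. Whether the deposit difference itself differed from that in endothelial cells was tested for the 8 called pairs, chosen after their values were seen. No member was called in endothelial cells, so this choice favours such a difference. The test was an exact 2-sided permutation of the deposit labels over 165 arrangements of the 11 libraries, WT included. It had no genotype term, while WT was only in the first deposit and p21mTertCD only in the later one. Genotype can therefore enter the difference. Atf3 in classical monocytes differed by -1.37 on the log2 scale and Fosb by -0.92 (exact p = 0.00606, the smallest possible, and adjusted p = 0.0242 for each). The other 3 pairs of classical monocytes did not pass: Fos gave -0.30 (exact permutation adjusted p = 0.297), Ier2 -0.37 (0.210) and Junb -0.33 (0.210). Fosb in neutrophils gave -0.61 (exact permutation adjusted p = 0.0848), Egr1 in T cells -0.75 (0.0848) and Ier2 in T cells -0.37 (0.291).

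Markers of other cell types were read in the same cells. In classical monocytes and T cells no marker list of another lineage separated the deposits. The alveolar macrophage list, for example, summed to 1569 to 1818 CPM in first-deposit and 631 to 2966 in later classical monocytes, and the NK and erythroid lists each had 1 marker at 0. The endothelial list came close to separating the deposits in T cells, at 82.1 to 98.7 against 39.5 to 82.2 CPM. In classical monocytes it was at 31.8 to 64.4 against 16.6 to 39.0 CPM, and its part was not tested. In neutrophils 3 lists separated them: non-classical monocyte markers at 204 to 267 against 71.0 to 189.8 CPM, B cell markers at 136 to 167 against 13.3 to 90.0, and erythroid markers at 19.1 to 115 against 126 to 1656. Their part in the neutrophil result was not tested. In alveolar macrophages B cell markers separated the deposits, at 27.6 to 33.5 against 0.843 to 15.2 CPM, and no member was called there. They did so too in endothelial cells, the reference of the permutation test above, at 106 to 170 against 6.08 to 99.9 CPM, and heat shock genes did in fibroblasts, at 3579 to 3928 against 4126 to 5656. In the lineages with calls by DESeq2 alone, endothelial markers separated the deposits in B cells (176 to 196 against 73.5 to 159 CPM) and ciliated markers in non-classical monocytes (226 to 294.8 against 294.9 to 501), and their part was not tested.

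Among the other lists, calls in both directions were found between the deposits. Of 265 lineage tests of other immediate early genes, 9 were called lower and 2 higher in the later deposit. Beside them, edgeR called 0.0103% (fibroblasts) to 3.44% (neutrophils) of all genes in a lineage, with 1.2% in classical monocytes, 0.816% in T cells and 0.824% in B cells. In classical monocytes Klf6 (-0.85, adjusted p = 0.00977; edgeR), Dusp1 (-0.80, adjusted p = 0.0415; edgeR) and Cebpd, a bZIP factor of myeloid cells (-0.74, adjusted p = 0.0482; edgeR), fell, while Nfe2l1, a bZIP factor that controls proteasome genes, rose (0.87). In T cells Zfp36 (-1.15), which destabilises cytokine mRNAs, Ier5 (-0.84) and Klf6 (-0.66) fell, and in B cells Klf6 fell (-0.76).

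Neutrophil Klf4 (-1.93), a zinc finger factor of myeloid differentiation, the phosphatase Dusp2 (-0.97) and the mitochondrial chaperonin Hspe1 (-0.87) fell. Ddit3 (0.80), a bZIP factor of the unfolded protein response, the kinase Map2k4 (0.73) and Nfe2l2 (0.65), the regulator of the antioxidant response, rose there. In endothelial cells the matricellular gene Ctgf (1.21), the AP-1 repressor Jdp2 (1.02) and the NF-kappaB inhibitor Nfkbia (0.65) rose and the JNK kinase Mapk8 (-0.72) fell, whereas no member passed the test. Nfe2l1 (0.69) and the chaperone Hsp90ab1 (0.58) rose in B cells. Over all 9 lineages, AP-1 and bZIP partners had 6 higher and 2 lower calls of 197 tests, kinases and SRF factors 1 and 1 of 216, and heat shock genes 2 and 1 of 133. Of all genes, 3.44% were called in neutrophils and 3.09% in endothelial cells. The counts of the lists were not tested against such shares.

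Summed over the 10 members, the level of classical monocytes was 7280 to 8287 CPM in first-deposit libraries, against 3874 to 6021 in later ones. Neutrophils had 11563 to 13128 against 6767 to 10400.1 CPM, T cells 4197 to 5042 against 2508 to 3964, NK cells 4952 to 6387 against 2549 to 4459, interstitial macrophages 12410 to 15908 against 6378 to 10379, and alveolar macrophages 4449 to 4726 against 3568 to 4402. These 6 lineages did not overlap between deposits. Of genes with at least 20 CPM, 7.58% in classical monocytes, 13.2% in neutrophils and 8.15% in T cells were likewise higher in the first deposit. That share was not counted in NK cells or either macrophage lineage, so their sums have no such background. Some other lists also did not overlap in the 6 lineages: T cell markers in NK cells (740 to 797 against 417 to 690.2 CPM), and in interstitial macrophages fibroblast markers (81.3 to 100.0 against 28.1 to 62.6) and heat shock genes (3888 to 4002 against 4158 to 5394). Their part, and that of the B cell markers in alveolar macrophages, was not tested. Endothelial cells had 11059 to 14455 against 7415 to 14494 CPM and overlapped, as did AT2 cells, ciliated cells, fibroblasts, non-classical monocytes and B cells. By library, p21mTert_1 had the highest sum in 5 of the 13 lineages it had at least 20 cells of, and WT_1 in 4 of 12. p21mTertCD_1 had the lowest in 6 of 14.

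**Figure D5:**
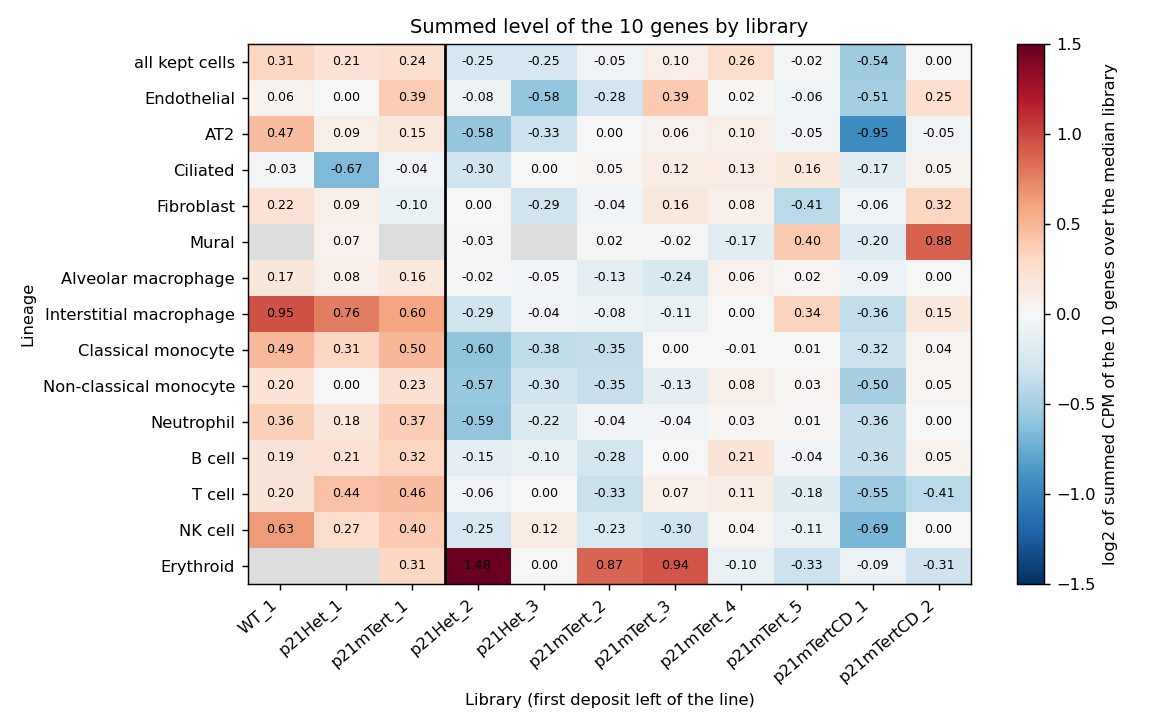
Summed level of the 10 genes in each lineage and library, as the log2 difference from that lineage's median over libraries, with grey where a library had under 20 cells. The first-deposit libraries are above the median in classical monocytes, neutrophils and T cells, and p21mTertCD_1 is the lowest library in 6 of 14 lineages.

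Another counted gene overlaps 3 members on the opposite strand, Jun with Junos, Junb with Prdx2 and Jund with Gm11175. Whether the counting used strand is not given in the sources used here, so reads of such pairs may not be separable.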

How the data were processed

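The deposited matrices hold raw UMI counts per gene and cell barcode, which the authors made by mapping to mm10 and counting with Cell Ranger, per the submitters' processing notes. The versions named in the labels and in the file headers differ, so none is stated. The cell filter and the scran normalization described in the labels' protocols are not in the deposited counts. The thresholds stated there, 1000 to 30000 UMIs per barcode and no more than 14% of them mitochondrial, were applied here. No doublet caller was run. The marker gate leaves out cells whose best list leads any other by fewer than 2 markers, and the share of doublets it removes was not counted. Near the edge of the gate lay 7.38% of gated cells, from 3.32% of neutrophils to 29.5% of mural cells. The share was 20.1% in interstitial macrophages, 19.6% in non-classical and 13.3% in classical monocytes. Ace and Ear2 of the non-classical list were highest in endothelial cells and alveolar macrophages, and Gda of the classical list in neutrophils. A doublet of 2 cells of 1 lineage is not seen by this gate.

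UMIs were summed per library over all kept cells or over a lineage, libraries with under 20 cells of it left out, and scaled to CPM. The quasi-likelihood model of edgeR 4.0.16 (R 4.3.3), after filterByExpr and TMM scaling, was fitted over 10 libraries with group as a term, and for the deposit with group and deposit, with Benjamini-Hochberg adjustment over all genes tested. The number of libraries, 36248337 to 67722156 kept UMIs each, limits the precision. The replicate is the library. Nothing says that libraries came from separate animals, so p-values measure the spread between these samples, which may be technical. Alternatives were DESeq2 1.42.0 and its size factors, library size only, no filter on low counts, other gates, all deposited barcodes, at most 5% mitochondrial UMIs per cell, deposit as a term, the later deposit alone, replicate numbers as a block, and each library left out. The fits were tested on simulated data. Python 3.11.15 with numpy 2.4.6, scipy 1.17.1, pandas 2.3.3 and matplotlib 3.10.9 was used otherwise.

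The members and lists were chosen with earlier results of these data known. All 10 members are named. From the other lists, those named are, per comparison, the 3 called genes of largest increase and the 3 of largest decrease, or fewer, and the 5 genes most like the summed members.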

Additional observations from a re-analysis of the deposited data

Results flagged for a closer look

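Single libraries stood apart from the other 4 of the p21mTert group, by Dixon's ratio at the 95% level, in 10 of 100 gene and lineage groups, where chance gives about 1 in 20. In 8 of the 10 the library was p21mTert_1, the first-deposit library of the group, and it was the high one each time. Ier2 was at 859 CPM in its AT2 cells (426.6 to 513 in the others), 642 in fibroblasts (483 to 527), 825 in neutrophils (473 to 550.4) and 428 in T cells (217 to 267). Fosl2 was at 738 CPM in its neutrophils (477 to 544) and 214 in T cells (125 to 129.7), Egr1 at 117 in T cells (43.3 to 62.2) and Fosb at 316 in non-classical monocytes (118 to 144). The remaining cases were Nr4a1 in B cells of p21mTert_4 at 734 CPM (518 to 578) and Fosb in AT2 cells of p21mTert_5 at 1292 CPM, the low one (1372 to 1389).

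The deposit difference in classical monocytes differed from that in endothelial cells for Atf3, by -1.37 on the log2 scale, and for Fosb, by -0.92, in an exact permutation test of that difference (p = 0.00606, adjusted p = 0.0242 for each). The 8 pairs so tested were chosen after their values were seen, and the permutation had no genotype term.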

How the results depend on the processing

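Counts of called members between genotypes stayed at 0 with deposit as a term, in the later deposit alone, with DESeq2, with either other scaling, either other gate and with each library left out. Exceptions within lineages, p21mTert minus p21Het, were 5 calls with no filter on low counts (Jun and Egr1 in classical monocytes, Nr4a1 and Egr1 in non-classical monocytes, Jun in neutrophils) and 3 with the replicate block (Jund, Ier2 and Egr1 in endothelial cells), while p21mTertCD minus p21Het in endothelial cells gave 1 call with the replicate block (Fos, 0.88). Of the 4 pairs of libraries whose titles share a number, 1 deviated together (r of 0.22 over 6238 genes, against -0.0053, -0.51 and -0.30). The numbers are therefore not taken to pair the samples. The block fit held only p21Het_2, p21mTert_2, p21mTertCD_2, p21Het_3 and p21mTert_3, whose numbers are shared. It held 1 p21mTertCD library, and its calls rest on these few libraries. Apart from DESeq2 between deposits, the share of all genes called under an alternative is not given here. Calls under the alternatives, between genotypes or deposits, are therefore not read as results about the members. For the deposit, all kept cells gave 1 call with DESeq2 (Ier2), and the 8 calls within lineages became 16 with DESeq2, 20 with no filter, 5 with all deposited barcodes and 0 to 10 with a library left out: 0 without p21Het_1 or p21mTert_1, 4 without p21mTert_2 and 5 without p21mTert_3, p21mTert_4 or p21mTert_5. None of the 8 called pairs reversed in its 18 alternatives, but the call was lost in 10 for Fos, 6 for Fosb and 2 each for Atf3, Ier2 and Junb in classical monocytes, in 8 for Ier2 and 6 for Egr1 in T cells, and in 6 for Fosb in neutrophils (-1.11 to -0.52). For p21mTert minus p21Het in all kept cells, reversals were Fos at -0.021 (leave-one-out range -0.021 to 0.16), Fosl2 at 0.17 (-0.57 to 0.17) and Junb at 0.12 (-0.16 to 0.12), each without p21Het_3, Junb at 0.021 with library size only, and Nr4a1 at -0.0012 with the replicate block and -0.11 without p21Het_2 (-0.11 to 0.28). The cause was not tested. Without TMM the median deposit change of all genes ran from -0.256 to -0.0338 over the units tested, against -0.0053 to 0.0292 with it. Of the 130 neighbour pairs, 31 to 44 differed under the alternatives and 36 to 44 with a library left out, the latter chosen after seeing the data, and with the gate at 4 markers 51 of 120 did.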
